A study of Homo sapiens
Mus musculus and Homo sapiens with 12 samples.

Results

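Human transcript levels in heterokaryons collected 1 day after fusion were compared with those in unfused co-cultures of the same cell types. The comparison uses 4 of the 12 samples of the series, 2 heterokaryon day 1 libraries and 2 co-culture libraries. It covers 4850 human genes of the 10588 with a listed human coding transcript in any library. These are the genes whose coding transcripts all precede, in accession order, the point where each of the 4 deposited tables stops. Coding transcripts were summed per gene, and a transcript missing before that point was taken as 0.

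The heterokaryons were made by fusing D3 mouse embryonic stem cells with MRC5 human lung fibroblasts. The co-cultures hold D3 and MRC5 cells that were grown together without fusion and pooled before a single RNA harvest, with no time given. Both groups thus share both cell lines and differ in fusion and in any step that went with it. The labels' extraction text speaks of sorted heterokaryons but is the same for every sample, so whether the co-cultures were sorted is not known. Poly(A) RNA was sequenced in every library. Whether the replicates came from separate cultures is not stated in the labels, and the p-values therefore reflect only the spread among these libraries, which may be technical.

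In a heterokaryon the plasma membranes are joined while the nuclei stay apart, so the fibroblast nucleus sits in a cytoplasm that also holds the proteins and RNA of the embryonic stem cell. Embryonic stem cells divide rapidly, with short gap phases, and hold pluripotency factors, whereas lung fibroblasts make collagen-rich matrix and carry integrins, TGF beta receptors and mesenchymal transcription factors. Reading human transcripts separately from mouse transcripts follows the fibroblast genome in the shared cytoplasm. The series follows reprogramming of the fibroblast genome over a time course, of which day 1 is the earliest sample.

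Levels are given in RPKM, that is reads scaled by transcript length and by the size of the library, with replicate 1 before replicate 2. The unit is inferred from the form of the values, the read depth is unknown, and no counting interval can be given. A value of 0 stands for a transcript missing from a table and need not mean that the gene was silent. PSMA4, a proteasome subunit, was 41.3 and 0 in the heterokaryons and 13.5 and 19.3 in the co-cultures, and COPB2, a vesicle coat subunit, was 32.6 and 38.4 in the heterokaryons and 0 and 24.2 in the co-cultures. Both are genes that every cell uses, and both were picked for this point after their values were seen. In these bulk samples, fewer cells of a type and less RNA per cell cannot be told apart.

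The 4 libraries listed 65.6% to 70.7% of the covered genes, with summed values of 192802 to 261540 RPKM over them and 16.4% to 17.0% of this sum in the 10 highest genes. Across the 3125 genes tested, log2 levels correlated at a Pearson r of 0.870 between the heterokaryon replicates, 0.938 between the co-culture replicates and 0.793 to 0.800 between groups. These are correlations across genes, which are not independent replicates. All 8 covered members of a 14-gene fibroblast marker list were listed in at least 1 library, with summed levels of 7523 and 8195 RPKM in the heterokaryons and 6983 and 7071 RPKM in the co-cultures. The collagen gene COL1A1 was 2897 and 3000.3 in the heterokaryons and 2419 and 2428 in the co-cultures. The intermediate filament gene VIM was 2063 and 1828 in the heterokaryons and 2185 and 2087 in the co-cultures. Both are abundant in all 4 libraries, but 2 other markers were not: FAP, a fibroblast surface protease, was 5.5004 and 0 in the heterokaryons and 2.85 and 9.13 in the co-cultures, and LUM, a matrix proteoglycan, was 2.58 and 0 in the heterokaryons and 0 and 0.785 in the co-cultures. The PDGF receptor gene PDGFRB was the 1 marker called lower (29.03 and 34.7 against 73.9 and 88.2; log2 fold change -1.32 ± 0.28, limma adjusted p = 0.0244).

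Of 15 pluripotent stem cell markers, 5 were covered. LIN28B, DPPA5 and UTF1 were 0 in all 4 libraries, LEFTY2 reached 0.689 and 0 in the heterokaryons, and PODXL rose as described with the pluripotency genes. Of 8 epithelial markers, 7 were covered, with summed levels of 154 and 109 RPKM in the heterokaryons and 6.03 and 20.3 RPKM in the co-cultures. KRT5 and KRT14 were 0 in all 4 libraries, and CDH1 and EPCAM, which define epithelium, were 0 and 0 against 0.0885 and 0 for CDH1 and 0 and 2.09 against 0 and 0 for EPCAM, heterokaryons against co-cultures. The other 3 markers were at higher levels in the heterokaryons: KRT19 and CLDN4 were called higher and KRT8 was not called, with values given among the keratin and junction genes. Of 4 covered muscle markers DES was called higher, with summed levels of 19.4 and 34.5 RPKM against 0.972 and 0, while MYOD1 was 0 in all 4 libraries. None of the covered endothelial, haematopoietic or neural markers was called. The sources used here do not give how the authors divided reads between mouse and human transcripts, and the part of mouse reads in the human values was not tested. Mouse transcripts were not analysed here.

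Of the 3125 genes tested with limma, which were at 1 RPKM or more in at least 2 of the 4 libraries, 391 (12.5%) were called, meaning an adjusted p under 0.05 by the Benjamini-Hochberg method. A total of 230 genes (7.36%) rose and 161 (5.15%) fell in the heterokaryons, and 944 genes had an unadjusted p under 0.05. The median log2 fold change was 2.31 among the genes that rose and -2.22 among those that fell, and 69 and 36 genes moved by more than 3 in either direction on this scale. Over all genes tested the median log2 fold change was 0.03, with 1601 genes above 0 and 1524 below. It was -0.09 after upper quartile scaling, a shift of over 0.1 that lowered the share of higher calls from 58.8% to 49.1%; quantile normalization gave 52.3%. All fold changes are on the scale of log2(RPKM + 1), which understates changes of low genes, and their errors are the SE of the fit. Replicates did not overlap between groups in 976 higher (31.2%) and 874 lower (28%) genes, 1850 (59.2%) in all. The plot of difference against level shows called genes over the whole range of abundance.

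**Figure D1:**
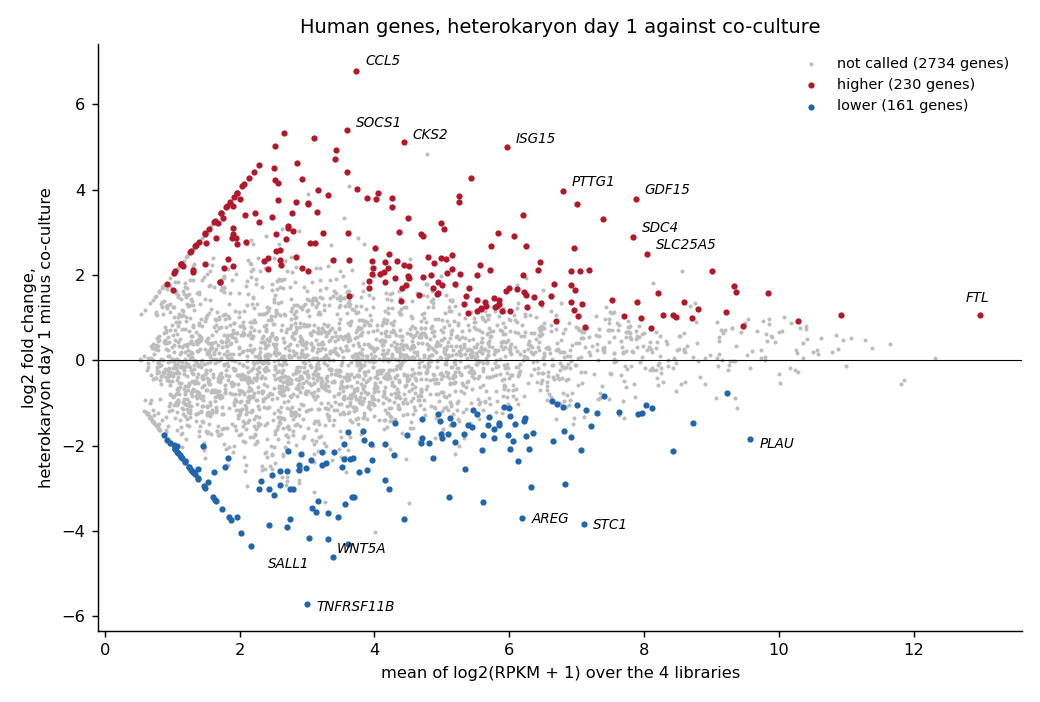
Each point is 1 of the 3125 genes tested, with its mean log2(RPKM + 1) over the 4 libraries on the x axis and its log2 fold change, heterokaryon day 1 minus co-culture, on the y axis. The 230 genes called higher are red, the 161 called lower are blue and the rest grey; the straight lower and upper edges at the left are genes at 0 in both libraries of 1 group.

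The number of calls dropped most when a co-culture was left out. With heterokaryon replicate 1 or 2 left out, 190 and 244 genes were called, and with co-culture replicate 1 or 2 left out, 33 and 47. Counts of retained calls are given below in the order heterokaryon replicate 1, heterokaryon replicate 2, co-culture replicate 1 and co-culture replicate 2 left out. Of the 230 higher genes, 93, 103, 28 and 39 stayed called higher, and of the 161 lower genes, 61, 75, 4 and 8 stayed called lower. In every one of these 4 fits, 23 genes were higher and 4 lower. A fit with 1 library in a group is less precise, so a lost call does not show that the left-out library decided it.

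Other settings also ended calls. Of the 207 called genes that the rules for naming genes pick out, 72 were not called in a fit of the 4 libraries alone, 60 without a trend in the variance, 43 without a filter on low values and 41 with the highest transcript of each gene in place of the sum. Quantile normalization ended 23 calls and upper quartile scaling 17. Where the adjusted p went above 0.1 with the highest transcript or with quantile normalization, it stands beside the gene below. It also went above 0.1 without a trend for HLA-B, ACTN4, MDH2, COX8A, COX6B1, COX6A1, RPS12, FAU, SNRPC and FBL, and in the 4 libraries alone for CDC45, THBS1, SOX9 and FUCA1, at most to 0.156 (MDH2).

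The 23 higher genes, named here because of this count, are of several kinds. Those of cell division were CKS1B, a subunit of cyclin-dependent kinases, KIFC1, a minus-end kinesin, MYBL2, a transcription factor of late cell cycle genes, TOP2A, the DNA topoisomerase of dividing cells, and HMGB2, a chromatin protein. Secreted factors and cytokine-induced genes were CCL5, GDF15, IGFBP2, SOCS1 and ISG15, and surface or epithelial genes were KRT19, PODXL and the heparan sulphate proteoglycan SDC4. RPS6KA1, a ribosomal S6 kinase downstream of ERK, was 41.6 and 66.9 in the heterokaryons and 1.23 and 3.94 in the co-cultures (log2 fold change 4.02 ± 0.53, limma adjusted p = 0.00504). Others were CRIP1, CRYAB, GPX3, GRAMD2A, LSP1, PDE4C and SLC25A5. Of these, LSP1 was not called with its highest transcript (adjusted p = 0.0742). LSP1 and IGFBP2 were 0 in both co-cultures, so the filter on low values fixed their direction.

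The 4 lower genes were ANKRD34A, ID2, PLAU and NPTX1. NPTX1, a secreted pentraxin, was 31.8 and 23.8 in the heterokaryons and 227 and 219.9 in the co-cultures (log2 fold change -2.98 ± 0.25, limma adjusted p = 0.00172), so both heterokaryons lay far below both co-cultures. ANKRD34A and ID2 were 0 in both heterokaryons, so the filter on low values fixed their direction.

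Among genes in the upper 50% of abundance with replicates that did not overlap between groups, the largest rise was that of CCL5, a chemokine that attracts T cells and monocytes. It was 135 and 143 in the heterokaryons and 0.0894 and 0.459 in the co-cultures (log2 fold change 6.79 ± 0.55, limma adjusted p = 0.00172). SOCS1, an inhibitor of JAK kinases that cytokines induce, was 81.1 and 73.2 in the heterokaryons and 0 and 2.43 in the co-cultures (log2 fold change 5.396 ± 0.63, limma adjusted p = 0.00499). LSP1, an actin-binding protein of leukocytes, was 42.6 and 36.1 in the heterokaryons and 0 and 0 in the co-cultures (limma adjusted p = 0.00298). In each of these genes both heterokaryons stood far above both co-cultures, which were at or near 0.

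CRIP1 and CRIP2, which encode small LIM domain proteins, were 61.6 and 43.1 against 0.985 and 0 for CRIP1 and 76.1 and 15.4 against 1.11 and 0 for CRIP2, heterokaryons against co-cultures, with log2 fold changes of 5.22 ± 0.52 and 4.62 ± 1.06. The heterokaryon replicates of CRIP2 lay far apart, those of CRIP1 close together. PDE4C, a phosphodiesterase that breaks down cyclic AMP, was 57.3 and 53.04 in the heterokaryons and 1.098 and 2.24 in the co-cultures (log2 fold change 4.43 ± 0.49, limma adjusted p = 0.00351). RRAD, a Ras-related GTPase, was 210.1 and 170.03 in the heterokaryons and 15.2 and 4.86 in the co-cultures (log2 fold change 4.29 ± 0.59, limma adjusted p = 0.00826). PGF, a ligand of the VEGF family, was 19.2 and 35.9 in the heterokaryons and 0 and 0.443 in the co-cultures (log2 fold change 4.51 ± 0.71, limma adjusted p = 0.00925). CA7, a cytosolic carbonic anhydrase, was 33.5 and 30.2 in the heterokaryons and 0 and 0 in the co-cultures (limma adjusted p = 0.00588). The other genes of the 15 were CKS2, TROAP and MYBL2, which belong to cell division, and ISG15 and BST2, which interferon induces; they are described with their groups. APOBEC3B, a cytidine deaminase, was 29.3 and 35.1 in the heterokaryons and 2.04 and 0 in the co-cultures (log2 fold change 4.25 ± 0.69, limma adjusted p = 0.0184).

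**Figure D2:**
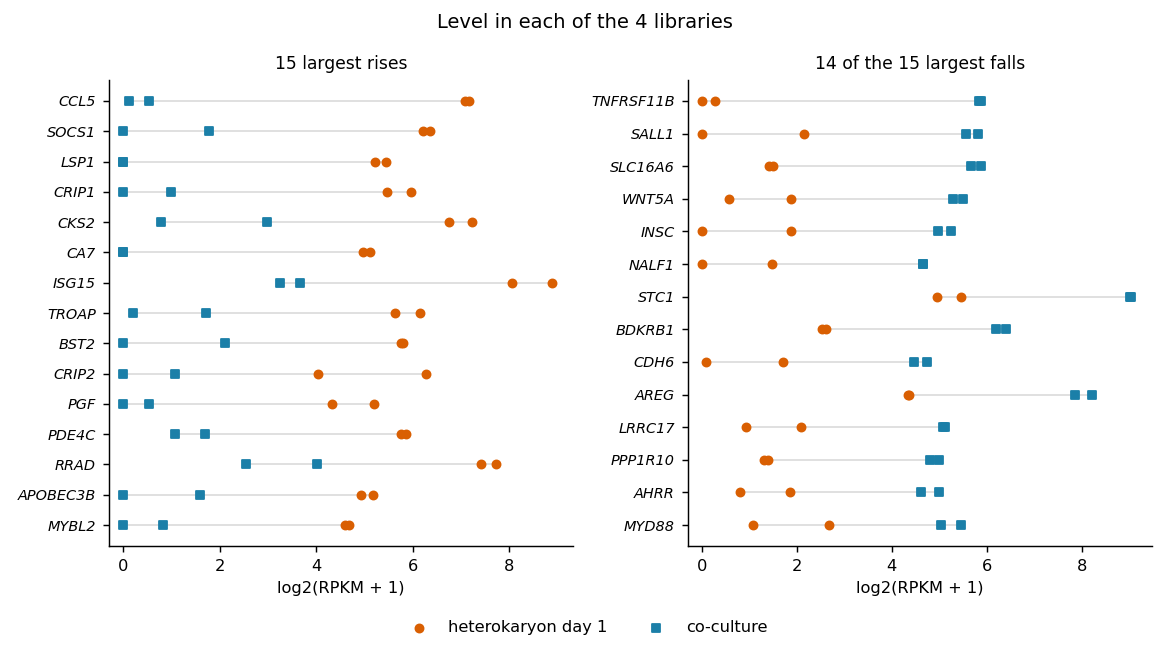
Level of the 15 genes with the largest rise (left) and 14 of the 15 with the largest fall (right) in each library, on a log2(RPKM + 1) axis. Orange circles are the 2 heterokaryon day 1 libraries and blue squares the 2 co-cultures; for every gene shown the 2 groups do not overlap, as the rule for choosing them required.

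Leaving out 1 library kept 10, 11, 11 and 9 of these 15 rises, and 7 were kept in all 4 fits. Of the 15 largest falls, 9, 10, 0 and 1 were kept, and none in all 4 fits. Nearly all of these falls thus lost their call with either co-culture left out, though none changed direction. Such a fit holds 1 co-culture library and is less precise, so it cannot show that a single library made the fall.

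TNFRSF11B, which encodes the secreted decoy receptor osteoprotegerin, fell most: it was 0 and 0.218 in the heterokaryons and 58.2 and 55.8 in the co-cultures (log2 fold change -5.71 ± 0.76, limma adjusted p = 0.00561). SALL1, a zinc finger repressor of organ development, was 0 and 3.44 in the heterokaryons and 45.9 and 55.7 in the co-cultures (log2 fold change -4.61 ± 0.78, limma adjusted p = 0.0116). WNT5A, a ligand of non-canonical WNT signalling, was 0.4804 and 2.67 in the heterokaryons and 38.3 and 44.2 in the co-cultures (log2 fold change -4.18 ± 0.52, limma adjusted p = 0.00436). In the heterokaryons these genes were near 0, and both co-cultures were within a narrow range well above them.

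Several of the genes that fell were above 0 in every library. STC1, a secreted glycoprotein hormone, was 29.97 and 42.6 in the heterokaryons and 516 and 523 in the co-cultures (log2 fold change -3.83 ± 0.73, limma adjusted p = 0.0184), a 14.3-fold fall. AREG, a ligand of the EGF receptor, was 19.5 and 19.3 in the heterokaryons and 232 and 297 in the co-cultures (log2 fold change -3.69 ± 0.64, limma adjusted p = 0.013), and BDKRB1, a bradykinin receptor that inflammation induces, was 5.11 and 4.78 in the heterokaryons and 72.1 and 83.3 in the co-cultures (log2 fold change -3.72 ± 0.44, limma adjusted p = 0.00359). The heterokaryon replicates of AREG and BDKRB1 nearly coincided.

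SLC16A6, a transporter of the monocarboxylate family, was 1.67 and 1.82 in the heterokaryons and 57.5 and 49.5 in the co-cultures (log2 fold change -4.31 ± 0.42, limma adjusted p = 0.00347). The cell adhesion gene CDH6 was 0.0662 and 2.27 in the heterokaryons and 21.2 and 25.8 in the co-cultures, and MYD88, the adaptor of Toll-like and interleukin 1 receptors, was 5.39 and 1.12 in the heterokaryons and 42.8 and 31.8 in the co-cultures. With its highest transcript MYD88 was not called (log2 fold change -2.45, adjusted p = 0.0521). AHRR, a repressor of the aryl hydrocarbon receptor, was 0.744 and 2.65 in the heterokaryons and 23.5 and 30.7 in the co-cultures. Other genes of the 15 were INSC, NALF1, LRRC17 and PPP1R10, with log2 fold changes of -4.16 ± 0.899, -3.91 ± 0.59, -3.59 ± 0.58 and -3.55 ± 0.88.

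At 0 in both co-cultures were 59 of the genes tested, and at 0 in both heterokaryons were 66. Of the former 30 were called higher and of the latter 30 were called lower, and the 391 calls include them. Such a gene passes the filter on low values only through the group where it is high, so its direction was fixed and these numbers are a description. No fold change is given for such genes. The 8 most abundant of the first kind were LSP1 and CA7, given above, with ISG20, ENTPD6, SCGB1A1, CCNA2, IGFBP2 and TIMP4. IGFBP2, a binding protein of insulin-like growth factors, was 14.7 and 18.8 in the heterokaryons (limma adjusted p = 0.00359) and TIMP4, an inhibitor of matrix metalloproteinases, 10.4 and 18.9 (adjusted p = 0.00652). ENTPD6, a nucleotidase, was 26.7 and 15.5 (adjusted p = 0.045), and SCGB1A1, the secretoglobin of airway club cells, was 7.29 and 33.5 (adjusted p = 0.0449). The last was thus high in replicate 2 and low in replicate 1.

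The 8 most abundant of the second kind were TCEAL1, ID2, SCG2, PTRHD1, ANKRD34A, TMEM11, FABP4 and GABRB1. ID2, an inhibitor of basic helix-loop-helix factors that BMP signalling induces, was 12.9 and 18.4 in the co-cultures (limma adjusted p = 0.00418). SCG2, a secretory granule protein, was 18.1 and 8.36 (adjusted p = 0.00885), and TCEAL1, a nuclear protein of the transcription elongation factor A-like family, was 18.3 and 20.4 (adjusted p = 0.00885). The others ran from 8.79 and 8.83 for the GABA receptor subunit gene GABRB1 (adjusted p = 0.00885) to 17.8 and 7.77 for PTRHD1 (adjusted p = 0.0209); TMEM11, at 5.48 and 13.6, was not called (adjusted p = 0.0645).

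The changes were then described by 36 lists of genes with a shared role. Against the background of 7.36% higher and 5.15% lower, the largest shares of higher members were in the lists of spindle genes (55.6%), cyclins (44%) and histones (33.3%), and the largest shares of lower members were in the lists of integrins (32%), growth factor ligands (26.1%) and mesenchymal regulators (24.1%). In 7 lists neither share was over 1.5 times the background, so their counts are no result about the list: chromatin regulators, heat shock, cholesterol synthesis, ribosomal proteins, proteasome, lysosome and apoptosis. The plot of all lists gives every tested member, and the text takes the lists in turn.

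**Figure D3:**
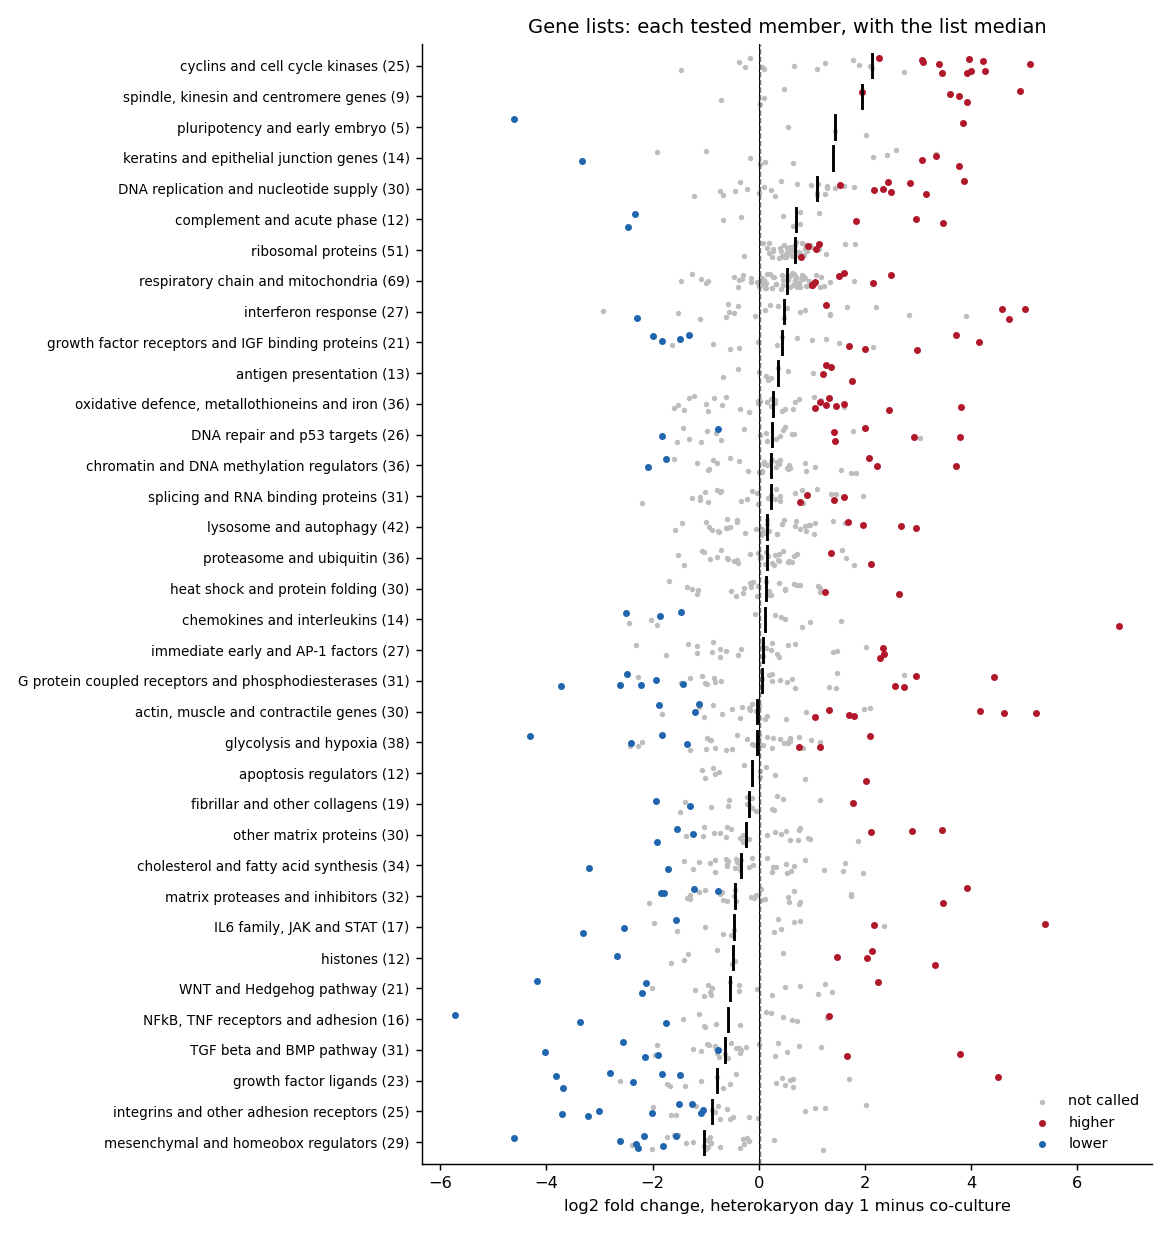
Log2 fold change of each tested member of the 36 gene lists, heterokaryon day 1 minus co-culture, with the number of tested members in brackets; red points were called higher, blue points lower and grey points were not called. Black bars are list medians and the dashed line is the median of all genes tested (0.03); the cyclin list has the highest median (2.13) and the list of mesenchymal and homeobox regulators the lowest (-1.03).

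Genes of cell division were higher in the heterokaryons across several lists, and none of their tested members was called lower. Of 25 tested cyclins, cell cycle kinases and their regulators, 11 rose, with a list median of 2.13. Of 9 tested spindle, kinesin and centromere genes, 5 rose (median 1.94), and of 30 replication and nucleotide supply genes, 8 rose (median 1.103). With 1 library left out, 6, 6, 3 and 5 of the 11 cyclin-list rises stayed called. Of the 5 spindle rises 3, 2, 2 and 2 stayed called, and of the 8 replication rises 2, 1, 1 and 1.

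Among regulators of cyclin-dependent kinases, CKS2 was 107 and 149 in the heterokaryons and 6.85 and 0.732 in the co-cultures and its paralogue CKS1B was 301 and 189 in the heterokaryons and 32.5 and 14.3 in the co-cultures, with log2 fold changes of 5.11 ± 0.76 and 3.403 ± 0.41. The cyclin A gene CCNA2, which acts in S phase and G2, was 23.2 and 14.4 in the heterokaryons and 0 and 0 in the co-cultures, and the cyclin B gene CCNB2, which acts in mitosis, was 57.4 and 20.96 in the heterokaryons and 2.25 and 0.541 in the co-cultures. WEE1, the kinase that holds back entry into mitosis, was 5.898 and 4.44 in the heterokaryons and 0 and 0.641 in the co-cultures (log2 fold change 2.26 ± 0.597, limma adjusted p = 0.046). Both groups were apart for each of these genes, and the replicates of CCNB2 differed most among the heterokaryons.

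Mitotic kinases and checkpoint genes rose with them. AURKB, a kinase of the chromosomal passenger complex, was 102 and 39.2 in the heterokaryons and 3.14 and 3.35 in the co-cultures (log2 fold change 3.92 ± 0.79, limma adjusted p = 0.0244), and PLK1, a kinase of mitotic entry and exit, was 85.1 and 103 in the heterokaryons and 9.07 and 11.6 in the co-cultures (log2 fold change 3.07 ± 0.34, limma adjusted p = 0.00652). The spindle checkpoint genes BUB1 and MAD2L1 were 17.7 and 26.4 against 0.611 and 1.64 for BUB1 and 13.1 and 25.6 against 0.304 and 2.93 for MAD2L1, heterokaryons against co-cultures. PTTG1, the securin that restrains the separation of sister chromatids, was the most abundant of the risen genes here, at 600.3 and 319 in the heterokaryons and 15.3 and 47.8 in the co-cultures (log2 fold change 3.96 ± 0.54, limma adjusted p = 0.00777). MYBL2 was 23.2 and 24.6 in the heterokaryons and 0 and 0.765 in the co-cultures (log2 fold change 4.23 ± 0.51, limma adjusted p = 0.00384). The most abundant member of the cyclin list not called was PLK3, a stress-responsive polo-like kinase, at 118 and 137 in the heterokaryons and 30.7 and 43.4 in the co-cultures (log2 fold change 1.77 ± 0.498, limma adjusted p = 0.062).

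Of the spindle genes, TROAP, a spindle-associated protein, was 70.2 and 48.3 in the heterokaryons and 2.299 and 0.158 in the co-cultures, and the mitotic kinesin genes KIF20A and KIFC1 were 36.2 and 96.2 against 2.22 and 4.98 for KIF20A and 69.6 and 61.9 against 5.31 and 3.76 for KIFC1. CENPA, the histone H3 variant of centromeres, was 15.3 and 13.02 in the heterokaryons and 0 and 0 in the co-cultures (limma adjusted p = 0.00436). RCC1, the exchange factor of Ran on chromatin, was 65.2 and 39.2 in the heterokaryons and 10.5 and 14.6 in the co-cultures (log2 fold change 1.94 ± 0.51, limma adjusted p = 0.046); with its highest transcript it was not called (log2 fold change 2.53, adjusted p = 0.129). The gamma tubulin gene TUBG1 was 79.8 and 67.9 in the heterokaryons and 55.04 and 50.2 in the co-cultures and was not called (log2 fold change 0.48 ± 0.23, limma adjusted p = 0.202). All 5 risen genes had both heterokaryons above both co-cultures, as had 31.2% of all genes tested. The 5 were named because they were called, so this adds no support.

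In DNA replication, TOP2A was 44.1 and 30.8 in the heterokaryons and 1.49 and 1.71 in the co-cultures (log2 fold change 3.87 ± 0.42, limma adjusted p = 0.00298). RRM2 and TK1, which supply deoxynucleotides, were 15.6 and 17.2 against 1.79 and 1.08 for RRM2 and 62.3 and 63.9 against 7.37 and 16.01 for TK1, with log2 fold changes of 2.85 ± 0.53 and 2.43 ± 0.52. The replicative helicase genes MCM2 and CDC45 were 30.95 and 37.1 against 6.98 and 5.03 for MCM2 and 11.1 and 30.99 against 3.87 and 0 for CDC45, and CDC45 was not called with its highest transcript (log2 fold change 2.33, adjusted p = 0.059). The genes for the flap endonuclease FEN1, the ligase LIG1 and the single-strand binding subunit RPA1 rose by 2.48 ± 0.62, 2.17 ± 0.46 and 1.52 ± 0.32 on the log2 scale. IMPDH2, which makes guanine nucleotides, was 209.6 and 283 in the heterokaryons and 213 and 203 in the co-cultures and was not called (log2 fold change 0.22 ± 0.25, limma adjusted p = 0.603).

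**Figure D4:**
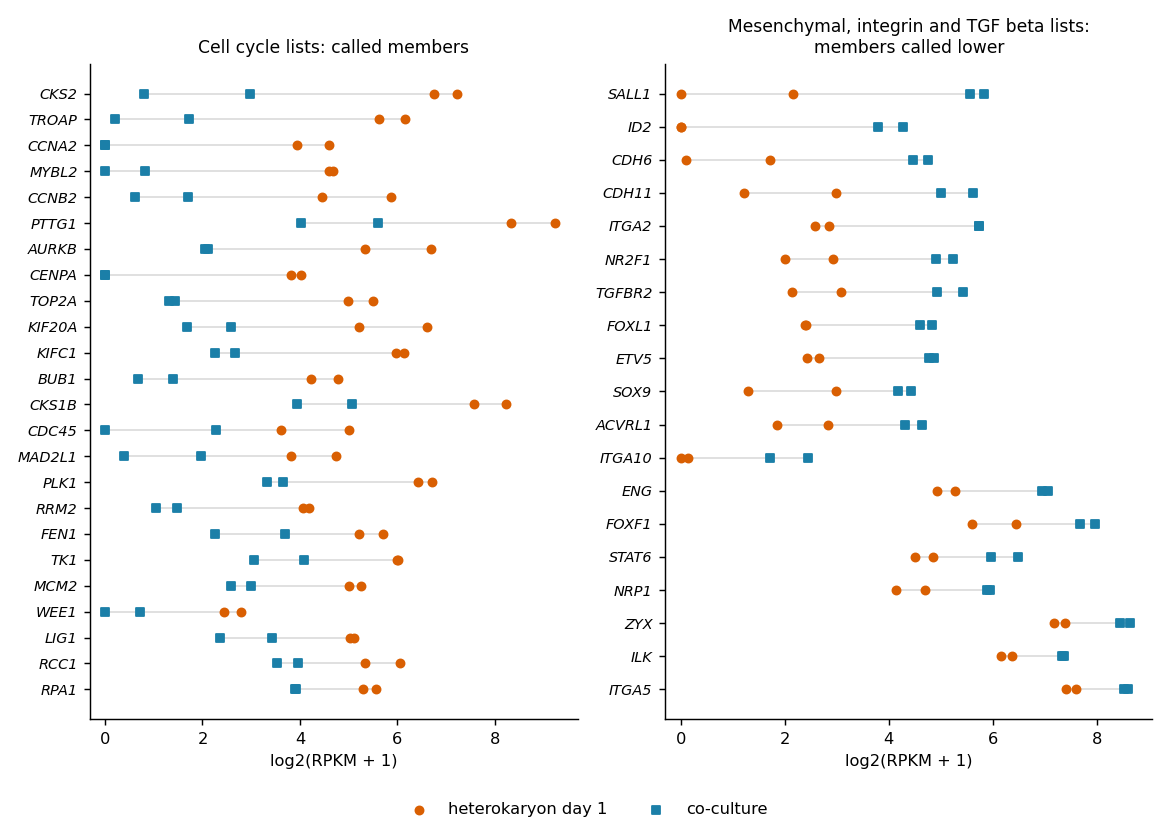
Left, the 24 members of the cyclin, spindle and replication lists called higher; right, 19 of the 20 members of the mesenchymal regulator, integrin and TGF beta lists called lower. Each row is a gene on a log2(RPKM + 1) axis, with orange circles for the 2 heterokaryon day 1 libraries and blue squares for the 2 co-cultures; in no row do the groups overlap.

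Of 12 tested histone genes, 4 rose and 1 fell, with a median of -0.48, below that of all genes. H3-3B, one of the genes for the replication-independent histone H3.3, was 311 and 294 in the heterokaryons and 70.3 and 66.6 in the co-cultures (log2 fold change 2.13 ± 0.23, limma adjusted p = 0.00652). H2AX, which marks DNA breaks when phosphorylated, and H2AZ1, a variant at promoters, rose by 2.04 ± 0.52 and 1.48 ± 0.25 on the log2 scale. H2BC21 fell from 15.5 and 11.1 in the co-cultures to 2.09 and 0.574 (log2 fold change -2.68 ± 0.64, limma adjusted p = 0.0351). H3-3A, which encodes the same H3.3 protein, was 74.1 and 64.3 in the heterokaryons and 64.2 and 39.2 in the co-cultures and was not called (log2 fold change 0.45 ± 0.36, limma adjusted p = 0.455). The values of near-identical histone copies depend on how reads were divided between them. In the fits without 1 library, 3, 3, 1 and 1 of the 4 rises and 0, 0, 0 and 0 of the 1 fall stayed called.

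Of 36 chromatin and DNA methylation regulators, 3 rose and 2 fell (median 0.24). The shares, 8.33% and 5.56%, are close to those over all genes tested. The DNA-bending proteins HMGB2 and HMGB3 were 139.6 and 135 against 14.8 and 5.99 for HMGB2 and 52.8 and 39.9 against 10.2 and 8.02 for HMGB3, and SUV39H1, a histone H3 lysine methyltransferase of heterochromatin, was 23.04 and 10.6 against 2.05 and 4.097. HMGA2, a chromatin protein of embryonic and mesenchymal cells, fell to 20.7 and 44.5 from 135 and 130.1 (log2 fold change -2.09 ± 0.39, limma adjusted p = 0.0171). SMARCD3, a subunit of BAF remodelling complexes, fell to 13.6 and 9.16 from 38.4 and 41.6 (log2 fold change -1.75 ± 0.35, limma adjusted p = 0.0201). HMGN1 was the most abundant member not called (97.4 and 116 against 75.9 and 66.8; log2 fold change 0.57 ± 0.27, limma adjusted p = 0.211). When each library was omitted in turn, 1, 2, 1 and 1 of the 3 rises and 1, 2, 0 and 0 of the 2 falls stayed called.

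Of 26 genes of DNA repair and p53 responses, 5 rose and 2 fell (median 0.24). GDF15, a stress-induced secreted factor of the TGF beta superfamily, was 997 and 758 in the heterokaryons and 50.96 and 75.8 in the co-cultures (log2 fold change 3.78 ± 0.296, limma adjusted p = 0.00334), a 13.8-fold rise that was kept whichever library was left out. GADD45A, a growth arrest gene, was 289 and 118 in the heterokaryons and 21.5 and 25.7 in the co-cultures (log2 fold change 2.92 ± 0.51, limma adjusted p = 0.0128). XPC and DDB2, which recognise ultraviolet damage, rose by 2.01 ± 0.33 and 1.43 ± 0.31 and PARP1, a sensor of strand breaks, by 1.42 ± 0.2996. IGFBP3, given below with the IGF binding proteins, fell. XRCC6, a subunit of the Ku heterodimer, was 297 and 233 in the heterokaryons and 183 and 191 in the co-cultures and was not called (log2 fold change 0.49 ± 0.27, limma adjusted p = 0.263). Across the 4 left-out fits, 2, 2, 1 and 1 of the 5 rises and 0, 0, 0 and 0 of the 2 falls stayed called.

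A number of fibroblast regulators and adhesion genes were lower in the heterokaryons than in the co-cultures. Of 29 tested mesenchymal and homeobox regulators, 7 fell and 0 rose; 27 had a log2 fold change below 0, with a median of -1.03. Besides SALL1, FOXF1 and FOXL1, forkhead factors of the mesenchyme of lung and gut, were 86.6 and 47.1 against 249 and 202 for FOXF1 and 4.25 and 4.29 against 27.4 and 23.3 for FOXL1, heterokaryons against co-cultures. SOX9, a factor of cartilage and other progenitors, was 1.46 and 6.88 against 20.4 and 16.98 (log2 fold change -2.16 ± 0.57, limma adjusted p = 0.0423), and NR2F1, an orphan nuclear receptor, was 3.02 and 6.57 against 29.2 and 36.8 (log2 fold change -2.61 ± 0.51, limma adjusted p = 0.027). ETV5, an ETS factor downstream of FGF signals, and STAT6, which acts in interleukin 4 signalling, fell, with log2 fold changes of -2.28 ± 0.47 and -1.55 ± 0.36, but STAT6 was not called with its highest transcript (log2 fold change -2.503, adjusted p = 0.163). ETV4, related to ETV5, was 45.6 and 70.2 against 89.5 and 58.3 and was not called (log2 fold change -0.35 ± 0.51, limma adjusted p = 0.698). After omitting either co-culture library these calls were lost, and some were lost after omitting a heterokaryon library. The 7 falls kept their direction. A fit with 1 library in a group is less precise, so it cannot show which library carried them.

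Of 25 integrins and other adhesion genes, 8 fell and 0 rose, with a median of -0.89. ITGA5, the alpha chain of the fibronectin receptor, was 194 and 168 in the heterokaryons and 365 and 389 in the co-cultures (log2 fold change -1.06 ± 0.21, limma adjusted p = 0.02). ITGA2, a collagen receptor chain, was 5.02 and 6.19 in the heterokaryons and 52.003 and 51.9 in the co-cultures (log2 fold change -3.01 ± 0.44, limma adjusted p = 0.00777), and ITGA10, another collagen receptor chain, was 0 and 0.0974 in the heterokaryons and 4.45 and 2.297 in the co-cultures. In each of these the co-cultures lay above both heterokaryons, as in 28% of all genes tested.

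CDH11, the cadherin of mesenchymal cells, was 1.31 and 6.92 in the heterokaryons and 48.3 and 30.9 in the co-cultures (log2 fold change -3.21 ± 0.62, limma adjusted p = 0.0185), and CDH6 fell with it. ZYX and ILK, proteins of focal adhesions, were 166 and 144 against 349 and 397 for ZYX and 70.1 and 81.3 against 163 and 159.9 for ILK, heterokaryons against co-cultures, with log2 fold changes of -1.26 ± 0.21 and -1.09 ± 0.23. NRP1, a co-receptor of VEGF and semaphorins, was 16.6 and 24.8 against 57.9 and 60.4 (log2 fold change -1.497 ± 0.32, limma adjusted p = 0.0295). With the highest transcript neither ILK (log2 fold change -0.86, adjusted p = 0.388) nor NRP1 (log2 fold change -1.1004, adjusted p = 0.311) was called. The tetraspanin gene CD81, the most abundant member not called, was 633 and 632 in the heterokaryons and 633 and 642 in the co-cultures, nearly the same in all 4 libraries. On leaving out single libraries, 4, 5, 0 and 0 of the 8 falls stayed called.

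Of 31 genes of the TGF beta and BMP pathway, 5 fell (16.1%) and 2 rose (6.45%), with a median of -0.63. Over all genes tested 5.15% fell and 7.36% rose. The receptors that fell were TGFBR2, the type II receptor that binds TGF beta, at 3.41 and 7.46 in the heterokaryons and 29.2 and 41.8 in the co-cultures (log2 fold change -2.56 ± 0.51, limma adjusted p = 0.0201), ACVRL1, a type I receptor, at 6.11 and 2.59 against 18.9 and 23.98, and the co-receptor ENG at 29.6 and 37.7 in the heterokaryons and 133 and 122 in the co-cultures (log2 fold change -1.9002 ± 0.31, limma adjusted p = 0.0101). The call of ENG was lost with its highest transcript (log2 fold change -0.96, adjusted p = 0.113). Of the targets, ID2 fell to 0 in both heterokaryons. The 2 members that rose were GDF15 and CCN1, a matricellular protein, at 238 and 209.8 in the heterokaryons and 78.9 and 62.5 in the co-cultures (log2 fold change 1.65 ± 0.39, limma adjusted p = 0.0333). TGFBI, an abundant secreted target, was 767 and 969 in the heterokaryons and 1236 and 1241 in the co-cultures and was not called (log2 fold change -0.52 ± 0.205, limma adjusted p = 0.122). With 1 library left out, 1, 1, 1 and 1 of the 2 rises and 3, 3, 1 and 1 of the 5 falls stayed called.

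In the WNT and Hedgehog list, 3 of 21 tested members fell (14.3%) and 1 rose (4.76%), with a median of -0.53. Over all genes tested 5.15% fell and 7.36% rose. Beside the ligand gene WNT5A, the receptor gene FZD1 was 2.82 and 2.23 in the heterokaryons and 14.4 and 16.1 in the co-cultures (log2 fold change -2.21 ± 0.45, limma adjusted p = 0.0222). Of the secreted frizzled-related inhibitors, SFRP1 fell from 704 and 744 to 135 and 199.5 (log2 fold change -2.13 ± 0.32, limma adjusted p = 0.00826), while SFRP2 was 0 in both co-cultures and 1.97 and 6.59 in the heterokaryons (limma adjusted p = 0.0452). CTNNB1, which encodes beta-catenin, was 54.6 and 44.4 against 87.9 and 99.1 and was not called (log2 fold change -0.91 ± 0.39, limma adjusted p = 0.165). In the fits without 1 library, 1, 0, 0 and 0 of the 1 rise and 3, 3, 0 and 0 of the 3 falls stayed called.

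More secreted growth factors fell than rose. Of 23 tested ligands and related hormones, 6 fell and 1, PGF, rose (median -0.78). VEGFA and VEGFC, which drive growth of blood and lymph vessels, were 27.6 and 28.5 against 113 and 90.5 for VEGFA and 5.41 and 6.18 against 39.1 and 55.03 for VEGFC, heterokaryons against co-cultures, with log2 fold changes of -1.81 ± 0.32 and -2.804 ± 0.41. HGF, the fibroblast ligand of the MET receptor, was 20.9 and 42.6 in the heterokaryons and 127 and 198 in the co-cultures (log2 fold change -2.37 ± 0.45, limma adjusted p = 0.0146). STC2 fell with its paralogue STC1, at a log2 fold change of -1.48 ± 0.298. In unfused fibroblasts VEGFA was 11.8, HGF 22.5 and 22.8 and STC2 114, with STC1 and AREG given below. VEGFC is not covered in unfused fibroblasts. MDK, a heparin-binding growth factor, was 359 and 214 in the heterokaryons and 227 and 139 in the co-cultures and was not called (log2 fold change 0.64 ± 0.36, limma adjusted p = 0.281). When each library was omitted in turn, 1, 1, 0 and 0 of the 1 rise and 0, 3, 0 and 0 of the 6 falls stayed called.

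Receptors and IGF binding proteins moved both ways: 5 of 21 tested rose and 4 fell (median 0.44). Of the Eph-ephrin system, which signals at cell contacts, the ligand gene EFNB1 was 142 and 178 in the heterokaryons and 20.3 and 18.1 in the co-cultures (log2 fold change 2.99 ± 0.42, limma adjusted p = 0.00885) and the receptor genes EPHA2 and EPHB4 rose by 1.996 ± 0.43 and 1.69 ± 0.39. NGFR, a receptor of neurotrophins, was 26.1 and 23.4 in the heterokaryons and 1.25 and 0.722 in the co-cultures (log2 fold change 3.71 ± 0.698, limma adjusted p = 0.0173). MET, the receptor of HGF, was 0.0404 and 0 in the heterokaryons and 2.05 and 4.37 in the co-cultures (log2 fold change -1.99 ± 0.52, limma adjusted p = 0.046), and was not called with its highest transcript (log2 fold change -1.33, adjusted p = 0.103). Among the binding proteins, IGFBP2 rose, IGFBP3 and IGFBP5 fell, with log2 fold changes of -1.83 ± 0.51 and -1.48 ± 0.303, and IGFBP4 was 1823 and 1282 in the heterokaryons and 775 and 742 in the co-cultures and was not called (log2 fold change 1.01 ± 0.46, limma adjusted p = 0.186). Across the 4 left-out fits, 2, 1, 1 and 1 of the 5 rises and 0, 2, 0 and 0 of the 4 falls stayed called.

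Of 31 genes of G protein signalling, 4 rose and 6 fell. The adenosine receptor gene ADORA2B, whose product raises cyclic AMP, was 19.2 and 21.7 in the heterokaryons and 1.15 and 3.76 in the co-cultures (log2 fold change 2.74 ± 0.51, limma adjusted p = 0.013). PDE4C, which degrades cyclic AMP, and RGS16, which shortens G protein signals, rose too; RGS16 was 6.15 and 7.54 in the heterokaryons and 0 and 0 in the co-cultures (limma adjusted p = 0.0204). The bradykinin receptor genes BDKRB1 and BDKRB2 fell together, BDKRB2 to 14.8 and 4.21 from 46.6 and 36.7 (log2 fold change -2.22 ± 0.54, limma adjusted p = 0.0366). The thrombin receptor gene F2R was 40.6 and 48.9 against 113 and 130.4, and EDNRA, S1PR1 and HTR1B, receptors of endothelin, sphingosine 1-phosphate and serotonin, were 0 in both heterokaryons; in the co-cultures EDNRA was 6.71 and 3.804, S1PR1 was 4.11 and 5.18 and HTR1B was 2.69 and 2.95. GPRC5A, an orphan receptor, was 33.3 and 43.8 against 25.6 and 39.8 and was not called. After omitting each library, 3, 3, 1 and 2 of the 4 rises and 3, 2, 0 and 0 of the 6 falls stayed called.

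Of 27 tested interferon-induced genes, 4 rose (14.8%) and 1 fell (3.7%), with a median of 0.48. Over all genes tested the shares were 7.36% and 5.15%. ISG15, a ubiquitin-like modifier, was 472 and 265 in the heterokaryons and 11.6 and 8.56 in the co-cultures (log2 fold change 5.01 ± 0.38, limma adjusted p = 0.00298), a 36.5-fold difference of the means that was kept whichever library was left out. BST2, which tethers virus particles, was 54.9 and 52.7 in the heterokaryons and 3.32 and 0 in the co-cultures (log2 fold change 4.72 ± 0.72, limma adjusted p = 0.0114), and the exonuclease gene ISG20 was 21.5 and 24.8 in the heterokaryons and 0 and 0 in the co-cultures (limma adjusted p = 0.0295). GBP1, a guanylate-binding protein, fell (0.178 and 1.16 against 7.56 and 6.18; log2 fold change -2.296 ± 0.61, limma adjusted p = 0.046). The membrane protein gene IFITM1 was 663 and 714 in the heterokaryons and 229 and 323 in the co-cultures and was not called (log2 fold change 1.33 ± 0.44, limma adjusted p = 0.0941). On leaving out single libraries, 1, 2, 2 and 2 of the 4 rises and 0, 0, 0 and 0 of the 1 fall stayed called.

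Of 13 antigen presentation genes, 4 rose and 0 fell (median 0.37). B2M, the light chain of MHC class I, was 1537 and 902 in the heterokaryons and 384 and 318 in the co-cultures (log2 fold change 1.75 ± 0.296, limma adjusted p = 0.0154), and the heavy chain gene HLA-B was 840.4 and 539 in the heterokaryons and 297 and 286 in the co-cultures (log2 fold change 1.21 ± 0.28, limma adjusted p = 0.0451). HLA genes are near-identical to each other, so their values depend on how reads were divided. The peptide transporter gene TAP1 and the proteasome activator gene PSME2 rose by 1.27 ± 0.27 and 1.36 ± 0.32. CALR, a chaperone of the endoplasmic reticulum, was 1350.3 and 1274 against 1198 and 1116 and was not called. With 1 library left out, 0, 3, 0 and 0 of the 4 rises stayed called.

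In the IL6, JAK and STAT list, 2 of 17 tested members rose and 3 fell (median -0.47). The ligand genes LIF and IL11 fell: LIF, the cytokine that keeps mouse embryonic stem cells undifferentiated in culture, was 17.5 and 14.3 in the heterokaryons and 91.1 and 102 in the co-cultures (log2 fold change -2.54 ± 0.29, limma adjusted p = 0.00359), and IL11 was 5.597 and 0.223 in the heterokaryons and 26.1 and 28.2 in the co-cultures (log2 fold change -3.31 ± 0.78, limma adjusted p = 0.0336). In the unfused fibroblast library that covers them, LIF was 7.36 and IL11 15.3. The inhibitor gene SOCS1 and PIM3, a kinase gene that cytokines induce, rose, the latter to 43.8 and 32.7 from 5.12 and 11.3 (log2 fold change 2.17 ± 0.55, limma adjusted p = 0.037). STAT6 fell, and the oncostatin M receptor gene OSMR was 25.1 and 25.6 against 56.3 and 47.98 and was not called (log2 fold change -1.01 ± 0.35, limma adjusted p = 0.105). In the fits without 1 library, 1, 1, 1 and 1 of the 2 rises and 2, 1, 0 and 0 of the 3 falls stayed called.

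Of 14 chemokines, interleukins and their receptors, CCL5 was the 1 that rose (7.14%), and 3 receptors fell (21.4%). IL1R1, the signalling receptor of interleukin 1, was 3.71 and 3.89 in the heterokaryons and 30.7 and 22.3 in the co-cultures (log2 fold change -2.502 ± 0.49, limma adjusted p = 0.0201), IL4R was 24.8 and 46.3 in the heterokaryons and 97.8 and 92.4 in the co-cultures (log2 fold change -1.46 ± 0.395, limma adjusted p = 0.0491), and IL13RA2, a decoy receptor, was 0 and 0 in the heterokaryons and 3.19 and 2.15 in the co-cultures. IL1B was 43.6 and 49.95 against 51.2 and 47.05, which does not separate the groups. In the NFkB and TNF receptor list, 1 of 16 rose (6.25%) and 3 fell (18.8%), with a median of -0.58. Over all genes tested 7.36% rose and 5.15% fell, so the share of rises in both lists is near that of all genes. TNFRSF11B, MYD88 and the lymphotoxin receptor gene LTBR fell, LTBR to 42.2 and 26.7 from 152 and 86.8. SOD2, a mitochondrial superoxide dismutase that NFkB induces, rose to 177 and 257 from 73.9 and 96.6 (log2 fold change 1.32 ± 0.29, limma adjusted p = 0.0244), while the TNF receptor gene TNFRSF1A was 53.5 and 103 against 173 and 154 and was not called (log2 fold change -1.13 ± 0.32, limma adjusted p = 0.0557). When each library was omitted in turn, 1, 1, 1 and 1 of the 1 rise and 0, 2, 0 and 0 of the 3 falls in the chemokine list stayed called, and 1, 0, 0 and 0 of the 1 rise and 3, 1, 0 and 0 of the 3 falls in the NFkB list.

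Of 12 complement and acute phase genes, 3 rose and 2 fell. C3, the central complement component, was 9.24 and 22.8 in the heterokaryons and 1.002 and 0 in the co-cultures (log2 fold change 3.46 ± 0.58, limma adjusted p = 0.00925), and CFB, a component of the alternative pathway, was 22.6 and 10.1 in the heterokaryons and 1.96 and 0.472 in the co-cultures (log2 fold change 2.95 ± 0.62, limma adjusted p = 0.0238). C4B was 5.898 and 4.55 in the heterokaryons and 0.817 and 0.6599 in the co-cultures, but it shares reads with a near-identical copy and its value is uncertain. PTX3, a pentraxin that fibroblasts secrete, fell to 6.21 and 5.82 from 32.6 and 35.7, and A2M, a protease inhibitor, fell to 1.74 and 4.77 from 18.05 and 24.05. CLU was 386 and 365 against 287 and 261 and was not called (log2 fold change 0.45 ± 0.31, limma adjusted p = 0.38). Across the 4 left-out fits, 1, 3, 0 and 0 of the 3 rises and 2, 2, 0 and 0 of the 2 falls stayed called.

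Most matrix genes, like most of all genes tested, were not called. In the collagen list 5.26% were called higher and 10.5% lower, beside 7.36% and 5.15% over all genes tested. Of 19 tested collagens and collagen-modifying genes, 1 rose and 2 fell, and the abundant chains COL1A1, COL1A2 and COL3A1 were not called, with log2 fold changes of 0.28 ± 0.18, 0.24 ± 0.24 and -0.12 ± 0.28. COL7A1, which forms anchoring fibrils, was 213 and 233 in the heterokaryons and 56.6 and 73.5 in the co-cultures (log2 fold change 1.77 ± 0.26, limma adjusted p = 0.00624). COL5A1, which regulates fibril width, and LOXL1, a cross-linking oxidase, fell, with log2 fold changes of -1.303 ± 0.26 and -1.93 ± 0.41. After omitting each library, 1, 1, 0 and 1 of the 1 rise and 0, 1, 0 and 0 of the 2 falls stayed called.

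Among 30 other matrix proteins, 3 rose (10%) and 3 fell (10%), beside 7.36% and 5.15% over all genes tested. The syndecan genes SDC4 and SDC1, cell surface heparan sulphate proteoglycans, were 697 and 555 against 83.6 and 82.6 for SDC4 and 116 and 101 against 22.4 and 25.9 for SDC1, with log2 fold changes of 2.89 ± 0.22 and 2.12 ± 0.27 and limma adjusted p-values of 0.00172 and 0.00475. SPP1, which encodes osteopontin, was 12.8 and 7.57 in the heterokaryons and 0 and 0 in the co-cultures, and was not called with its highest transcript (adjusted p = 0.18). THBS1, a matricellular activator of TGF beta, was 52.2 and 141 in the heterokaryons and 243 and 260.4 in the co-cultures (log2 fold change -1.54 ± 0.41, limma adjusted p = 0.0474), with heterokaryon replicates far apart. LTBP2 and EFEMP1, of elastic fibres, fell, with log2 fold changes of -1.25 ± 0.26 and -1.93 ± 0.43. On leaving out single libraries, 2, 2, 1 and 2 of the 3 rises and 2, 2, 0 and 0 of the 3 falls stayed called.

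Of 32 matrix proteases and inhibitors, 2 rose (6.25%) and 4 fell (12.5%), with a median of -0.44. Over all genes tested 7.36% rose and 5.15% fell. Genes of the urokinase system fell: PLAU, the urokinase, was 399 and 408 in the heterokaryons and 1529.7 and 1360.2 in the co-cultures (log2 fold change -1.84 ± 0.19, limma adjusted p = 0.00298), and its receptor gene PLAUR was 57.1 and 27.6 against 139.97 and 139 (log2 fold change -1.78 ± 0.43, limma adjusted p = 0.0341). The fall of PLAU was kept whichever library was left out. Of the metalloproteinase inhibitors, TIMP2 was 177 and 149 against 385 and 380.2 (log2 fold change -1.23 ± 0.21, limma adjusted p = 0.0127), TIMP4 rose from 0, and TIMP1 was 3482 and 2909 against 4556 and 4171 and was not called (log2 fold change -0.45 ± 0.36, limma adjusted p = 0.46). CPE, a carboxypeptidase that processes hormones, was 21.97 and 36.7 against 0.532 and 3.58 (log2 fold change 3.47 ± 0.604, limma adjusted p = 0.013). With 1 library left out, 2, 1, 0 and 1 of the 2 rises and 3, 2, 1 and 1 of the 4 falls stayed called.

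Of 14 tested keratin and junction genes, 3 rose and 1 fell (median 1.401). KRT19, a keratin of simple epithelia, was 86.6 and 58.4 in the heterokaryons and 5.94 and 6.29 in the co-cultures (log2 fold change 3.34 ± 0.38, limma adjusted p = 0.00359), and the tight junction gene CLDN4 was 21.04 and 20.8 in the heterokaryons and 0 and 1.601 in the co-cultures (log2 fold change 3.77 ± 0.61, limma adjusted p = 0.0103). GJB5, a connexin of epithelia, was 5.41 and 10.1 in the heterokaryons and 0 and 0 in the co-cultures (limma adjusted p = 0.0251), whereas GJA1, the main connexin of fibroblasts, fell to 9.96 and 20.8 from 149 and 159 (log2 fold change -3.33 ± 0.43, limma adjusted p = 0.00359). KRT8 was 46.6 and 28.2 in the heterokaryons and 0 and 12.4 in the co-cultures and was not called (log2 fold change 3.35 ± 2.23, limma adjusted p = 0.366). In the fits without 1 library, 2, 2, 1 and 2 of the 3 rises and 1, 1, 0 and 1 of the 1 fall stayed called.

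Of the 38 genes in the pluripotency and early embryo list, 16 were covered and 5 passed the filter on low values, so the list says little on pluripotency factors at day 1. PODXL, a surface sialomucin that pluripotent cells carry, was 137 and 151 in the heterokaryons and 7.39 and 11.04 in the co-cultures (log2 fold change 3.85 ± 0.34, limma adjusted p = 0.0036), a 15.6-fold rise that was kept whichever library was left out. SALL1 fell. KLF4 and KLF5, Krüppel-like factors of the pluripotency network, were 4.56 and 4.98 against 0 and 1.01 for KLF4 and 10.2 and 6.84 against 2.699 and 2.22 for KLF5 with log2 fold changes of 2.02 ± 0.596 and 1.44 ± 0.56, and MYC was 18.9 and 40.5 against 19.5 and 17.9; none of the 3 was called (limma adjusted p of 0.0693, 0.125 and 0.42). In KLF4 and KLF5 both heterokaryons lay above both co-cultures, as in 31.2% of all genes tested. For SALL1, 1, 1, 0 and 0 calls, out of 1, were kept with 1 library left out.

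Actin and muscle genes moved in both directions. Of 30 tested, 7 rose and 3 fell. DES, the muscle intermediate filament gene, was 17.5 and 33.6 in the heterokaryons and 0.972 and 0 in the co-cultures (log2 fold change 4.17 ± 0.58, limma adjusted p = 0.00652), and the actin-capping gene CAPG was 203 and 175 in the heterokaryons and 56.3 and 51.3 in the co-cultures (log2 fold change 1.79 ± 0.27, limma adjusted p = 0.00777). CKB, a creatine kinase, rose by 1.698 ± 0.26, and the actin cross-linker ACTN4 rose by 1.05 ± 0.22. The tropomyosin genes TPM1 and TPM4, which stabilise contractile actin, were 58.6 and 44.8 against 206 and 179.7 for TPM1 and 189 and 186 against 408 and 413 for TPM4, and CSRP1 was 152 and 109.6 against 269 and 331, heterokaryons against co-cultures. TPM4 was not called with its highest transcript (log2 fold change -0.603, adjusted p = 0.25). When each library was omitted in turn, 4, 5, 2 and 1 of the 7 rises and 1, 0, 0 and 0 of the 3 falls stayed called.

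Of 27 immediate early and AP-1 genes, 3 rose (11.1%), beside 7.36% over all genes tested. ATF3, a stress-induced factor, was 55.6 and 73.9 in the heterokaryons and 9.302 and 16.5 in the co-cultures (log2 fold change 2.28 ± 0.36, limma adjusted p = 0.00903), JUND, an AP-1 subunit, was 48.4 and 40.4 in the heterokaryons and 8.37 and 7.604 in the co-cultures (log2 fold change 2.33 ± 0.38, limma adjusted p = 0.0184), and DUSP5, a phosphatase of ERK, was 88.7 and 63.8 in the heterokaryons and 11.5 and 16.5 in the co-cultures (log2 fold change 2.37 ± 0.48, limma adjusted p = 0.0251). IER3 was 267 and 196 against 184 and 207 and was not called. In the heat shock list, 2 of 30 rose: the small heat shock gene CRYAB was 376 and 254 in the heterokaryons and 50.1 and 47.6 in the co-cultures (log2 fold change 2.64 ± 0.303, limma adjusted p = 0.00359), and FKBP4, a co-chaperone of HSP90, was 105 and 67.5 against 37.04 and 32.6. BAK1, which permeabilises mitochondria in apoptosis, was the 1 of 12 apoptosis genes called, at 81.5 and 72.9 in the heterokaryons and 16.3 and 20.2 in the co-cultures (log2 fold change 2.02 ± 0.29, limma adjusted p = 0.00736); DAPK3 was 25.4 and 21.6 against 44.5 and 35.7 and was not called. Across the 4 left-out fits, 1, 1, 0 and 1 of the 3 immediate early rises stayed called, 1, 1, 1 and 1 of the 2 heat shock rises and 1, 1, 0 and 0 of the 1 apoptosis rise.

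Of 36 genes of oxidative defence and iron handling, 8 rose and 0 fell. GPX3, a secreted glutathione peroxidase, was 74.9 and 67.1 in the heterokaryons and 3.45 and 4.98 in the co-cultures (log2 fold change 3.801 ± 0.35, limma adjusted p = 0.00287), a 16.8-fold rise. GSTP1, a glutathione transferase, was 1282 and 1019 in the heterokaryons and 326 and 437 in the co-cultures (log2 fold change 1.597 ± 0.23, limma adjusted p = 0.00499), and the glutathione reductase and synthetase genes GSR and GSS rose by 1.45 ± 0.30005 and 1.26 ± 0.31. With its highest transcript GSR was not called (log2 fold change 0.45, adjusted p = 0.742), and GSS was called in 8 of the 12 settings other than left-out libraries. FTL, the ferritin light chain and the most abundant gene tested, was 13989.8 and 9869.9 in the heterokaryons and 5872 and 5404 in the co-cultures (log2 fold change 1.06 ± 0.25, limma adjusted p = 0.0293); as the highest gene of each library it has no difference under quantile normalization. FTH1, the ferritin heavy chain, was 2035 and 1311 in the heterokaryons and 1165 and 1142 in the co-cultures and was not called (log2 fold change 0.501 ± 0.27, limma adjusted p = 0.259). In haem breakdown, HMOX2 rose by 1.15 ± 0.29 and BLVRB by 2.46 ± 0.45. After omitting each library, 3, 4, 1 and 2 of the 8 rises stayed called.

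Respiratory chain and ribosomal protein genes showed small shifts shared by many members. Of 69 tested respiratory chain and mitochondrial genes, 8 rose and 0 fell; 56 had a log2 fold change above 0, with a median of 0.52 (0.38 with upper quartile scaling and 0.37 with quantile normalization). SLC25A5, an exchanger of ATP and ADP, was 523 and 739.9 in the heterokaryons and 109.9 and 111 in the co-cultures (log2 fold change 2.49 ± 0.23, limma adjusted p = 0.00172). VDAC2, a pore of the outer membrane, was 142 and 117 against 40.6 and 43.3, IDH2, of the mitochondrial isocitrate step, was 88.1 and 61.6 against 18.02 and 13.9, and SDHA, of complex II, was 216 and 127 against 57.4 and 57.6. MDH2, COX8A, COX6B1 and COX6A1 rose by 1.06, 1.02, 1.002 and 1.001 on the log2 scale. The call of COX6A1 was lost with quantile normalization (log2 fold change 0.704, adjusted p = 0.117). ATP5MC2, a subunit of the ATP synthase, was 404 and 384 against 538 and 502 and was not called (log2 fold change -0.399 ± 0.21, limma adjusted p = 0.268). On leaving out single libraries, 2, 4, 1 and 1 of the 8 rises stayed called.

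Of 51 tested ribosomal protein and translation factor genes, 50 had a log2 fold change above 0, with a median of 0.68 (0.54 with upper quartile scaling and 0.34 with quantile normalization), but 4 were called. They were RPL37A, RPS12, RPS25 and FAU, with log2 fold changes of 1.07 ± 0.27, 0.92 ± 0.23, 1.14 ± 0.27 and 0.802 ± 0.21. RPL37A was 3310.1 and 2399 in the heterokaryons and 1711 and 1049.7 in the co-cultures. With quantile normalization neither RPL37A (log2 fold change 0.64, adjusted p = 0.103) nor FAU (log2 fold change 0.43, adjusted p = 0.225) was called. EEF1A1 was 3979 and 3342 in the heterokaryons and 2853 and 2780.5 in the co-cultures and was not called (log2 fold change 0.37 ± 0.24, limma adjusted p = 0.344). These genes have many processed pseudogenes and close mouse orthologues, and the part of either in the values was not tested. With 1 library left out, 0, 3, 0 and 0 of the 4 rises stayed called.

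In glycolysis and the pentose phosphate pathway, 3 of 38 tested members rose (7.89%) and 4 fell (10.5%). Over all genes tested the shares were 7.36% and 5.15%, so the rises are no result about the list. The pentose phosphate gene TKT was 1074 and 1040.3 in the heterokaryons and 241 and 256 in the co-cultures, with a log2 fold change of 2.09 ± 0.37. HK2, the inducible hexokinase, was 2.08 and 4.75 in the heterokaryons and 20.6 and 22.2 in the co-cultures (log2 fold change -2.41 ± 0.48, limma adjusted p = 0.0207); GYS1, a glycogen synthase, fell, at a log2 fold change of -1.36 ± 0.33 (not called with its highest transcript: log2 fold change -1.81, adjusted p = 0.117), and VEGFA and SLC16A6 fell as above. GAPDH was 4952 and 5404 in the heterokaryons and 5246 and 4800.1 in the co-cultures, which does not separate the groups. Of 34 cholesterol and fatty acid genes, 2 fell: DHCR7, the last enzyme of cholesterol synthesis, was 50.9 and 38.5 in the heterokaryons and 138 and 158 in the co-cultures (log2 fold change -1.71 ± 0.27, limma adjusted p = 0.00885), and FABP4 was 0 in both heterokaryons. ACADVL was 421 and 417 against 358 and 343 and was not called. In the fits without 1 library, 0, 1, 0 and 0 of the 3 rises and 2, 3, 0 and 1 of the 4 falls in glycolysis stayed called, and 1, 1, 0 and 0 of the 2 falls in cholesterol synthesis.

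Of 42 lysosome and autophagy genes, 4 rose: GM2A, an activator of ganglioside breakdown, was 121 and 145 in the heterokaryons and 22.1 and 18.1 in the co-cultures (log2 fold change 2.67 ± 0.39, limma adjusted p = 0.00758), the hydrolase genes GUSB and NEU1 were 41.97 and 45.7 against 9.31 and 11.7 for GUSB and 133 and 113 against 36.03 and 39.7 for NEU1, and FUCA1 was 22.7 and 3.62 against 0.816 and 0. CD63 was 1638 and 1095 against 1290.4 and 1268 and was not called. Of 36 proteasome and ubiquitin genes, PSMA6 at 217 and 147 against 43.2 and 38.04 (log2 fold change 2.11 ± 0.36, limma adjusted p = 0.0116) and PSME2 rose, and PSMB4 was 445 and 455 against 335 and 271 and was not called (log2 fold change 0.58 ± 0.22, limma adjusted p = 0.119). Of 31 splicing and RNA binding genes, 4 rose, namely HNRNPL at 326 and 278 against 109.5 and 114 (log2 fold change 1.42 ± 0.24, limma adjusted p = 0.0114), SNRNP70 at 128 and 90.02 against 32.2 and 36.8, SNRPC and FBL, the last not called with quantile normalization (log2 fold change 0.56, adjusted p = 0.114); YBX1 was 695 and 775 against 568 and 602 and was not called. When each library was omitted in turn, 1, 2, 0 and 0 of the 4 lysosomal rises stayed called, 0, 1, 0 and 0 of the 2 proteasome rises and 1, 2, 0 and 0 of the 4 splicing rises.

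The levels of the changed genes in the other libraries are given as values only, since they share samples with the comparison or, for the homokaryons of fibroblasts fused with each other, rest on 1 library. CCL5 was 23.1 and 48.8 at day 2, 19.7 and 44.7 at day 3, 6.26 in the unfused fibroblast library that covers it and 17.3 in the homokaryons. KRT19 was 259 and 329 at day 2 and 221 and 144 at day 3, with 6.95 in unfused fibroblasts and 3.18 in homokaryons. For CRIP1, day 2 gave 114 and 131 and day 3 gave 75.3 and 52.2, unfused fibroblasts 0.678 and homokaryons 0. CCL5 was thus highest at day 1, whereas KRT19 was higher in all 4 later libraries than in both day 1 libraries. Several immune rises were not particular to the heterokaryons. In the homokaryons BST2 was 105, B2M 1541, HLA-B 981, C3 39.3, CFB 23.5, C4B 7.01 and SOD2 340, each above both day 1 heterokaryons. Others were below both there, with ISG15 at 149, ISG20 at 2.13, TAP1 at 68.3 and PSME2 at 230.

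TOP2A and CKS1B, of cell division, were lower in all 4 later heterokaryon libraries than in both day 1 libraries. TOP2A was 11.8 and 15.5 at day 2 and 2.803 and 3.27 at day 3, 11.2 and 8.54 in unfused fibroblasts and 0.852 in homokaryons. CKS1B was 72.5 and 65.8 at day 2 and 28.8 and 37.9 at day 3, 48.6 in unfused fibroblasts and 12.9 in homokaryons. TK1 was 54.7 in unfused fibroblasts, close to its 62.3 and 63.9 in day 1 heterokaryons and above its 7.37 and 16.01 in the co-cultures. For TOP2A and CKS1B the unfused fibroblasts thus lay between the co-cultures and the day 1 heterokaryons.

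Of the falls, TNFRSF11B was 12.1 and 17.4 at day 2 and 30.2 and 4.67 at day 3, 29.2 in unfused fibroblasts and 46.2 in homokaryons. WNT5A was 6.21 and 6.23 at day 2 and 13.99 and 12.3 at day 3, 12.9 in unfused fibroblasts and 9.02 in homokaryons. AREG was 3.23 in unfused fibroblasts and 0 in homokaryons, both below its 19.5 and 19.3 in the day 1 heterokaryons, so the co-cultures stood alone as the high group for this gene. STC1 was 106 in unfused fibroblasts and 31.6 in homokaryons, against 516 and 523 in the co-cultures. For BDKRB1 the homokaryons, at 112, and unfused fibroblasts, at 95.3, were above the co-cultures. PLAU was 447 in unfused fibroblasts and 629 in homokaryons, nearer to its 399 and 408 in the day 1 heterokaryons than to its 1529.7 and 1360.2 in the co-cultures. In the unfused fibroblast library that covers them, STAT6 (22.1), ACVRL1 (4.99), BDKRB2 (10.2) and IL4R (25.5) lay between the day 1 heterokaryon replicates. SALL1 (10.1) and PDGFRB (41.3) lay between the groups there. TGFBR2 (49.9), ENG (217), ITGA5 (438), ZYX (647) and NRP1 (87.0) lay above both co-cultures. In the homokaryons STAT6 was 114, ACVRL1 22.3, BDKRB2 316 and IL4R 38.5.

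**Figure D5:**
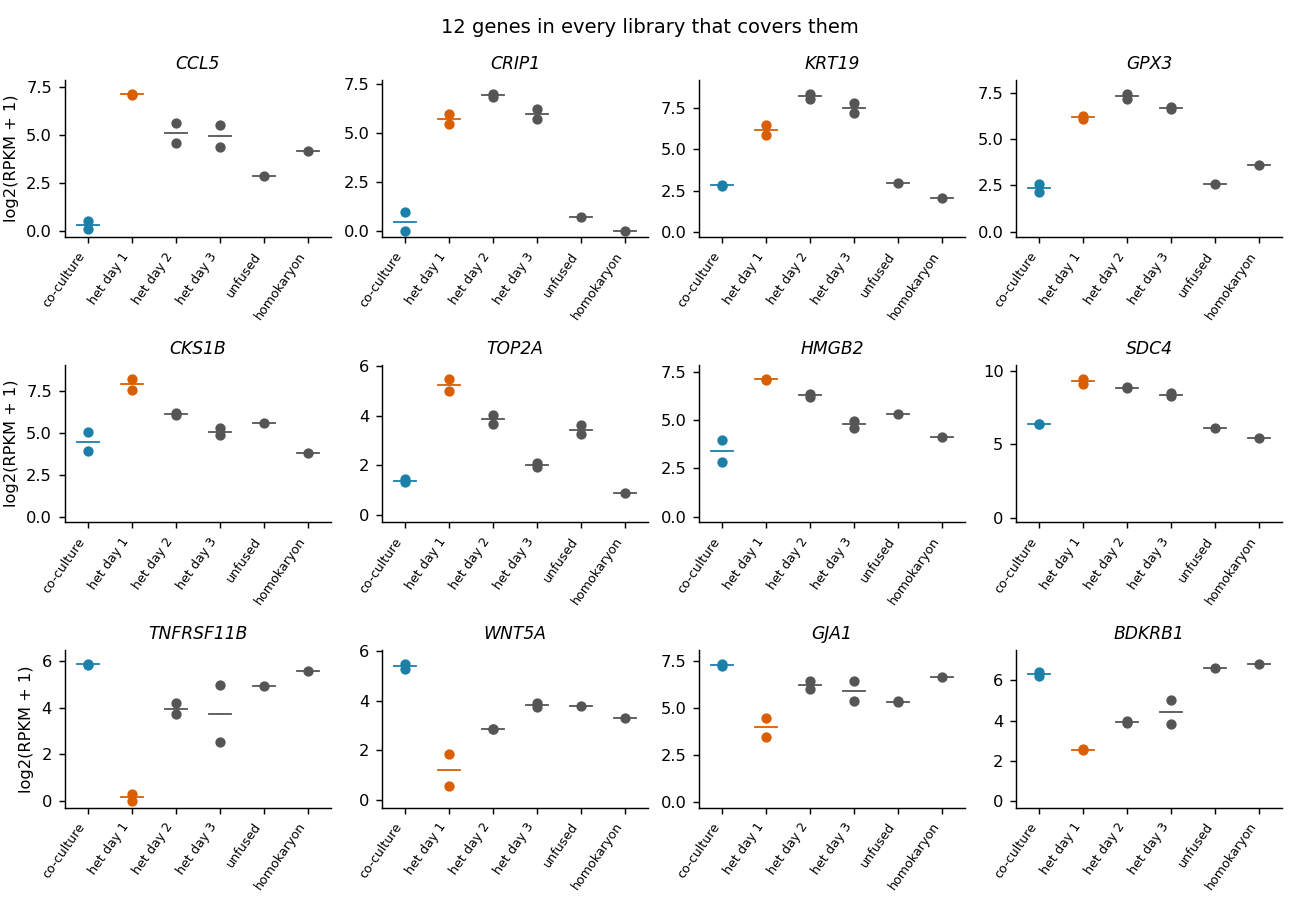
Level of 12 called genes, on a log2(RPKM + 1) axis, in every library whose table covers them: co-culture (blue), heterokaryons at day 1 (orange), day 2 and day 3, unfused fibroblasts and homokaryons (grey). Each point is a library and each bar the mean of a group; unfused fibroblasts have 1 or 2 points and homokaryons 1, and the co-cultures of WNT5A, GJA1 and TNFRSF11B lie above all other libraries.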

How the data were processed

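Each deposited table lists 1 value per RefSeq transcript, taken as RPKM computed by the authors; the unit is inferred from the values, and FPKM or TPM could not be told apart from it. The aligner and the counting are not given in the sources used here; hg19 and mm10 are named per the submitters' processing notes. Each of the 4 tables holds 10000 distinct values in accession order, with no 0, and stops at an accession that differs between libraries. Past that point only rows repeating an earlier value appear, so transcripts there were treated as not covered. Coding transcripts were summed per gene through RefSeq names, with 132 older accessions named through GENCODE; 100 of 4950 covered genes next to an unnamed accession were set aside, because a lost transcript would appear as a change, which left 4850.

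Genes at 1 or more in at least 2 of the 4 libraries (3125) were fitted with limma 3.58.1 in R 4.3.3 (eBayes with a trend) on log2(RPKM + 1), with groups as the only term and Benjamini-Hochberg adjustment over all genes tested. The fit shares its spread over 10 libraries of the 5 replicated groups, with a library left out for genes beyond the end of its table; unfused fibroblast replicate 3, in which no human accession was found, was not used. With 2 libraries against 2, an exact two-sided permutation test of 1 gene cannot go below p = 0.333, so none was used.

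The genes, the 36 lists and the tests were chosen with earlier results of these data known. Named genes are, among called genes in the upper 50% of mean abundance whose replicates do not overlap between groups, the 15 largest rises and 15 largest falls; the 8 most abundant genes at 0 in both libraries of the other group; called members of the lists; and the most abundant member or members not called per list. A few genes that this rule names are not reported here, but all counts include them. Alternatives were other scalings, pseudocounts and filters, the highest transcript in place of the sum, no trend, a replicate block and each library left out. Same-numbered replicates share only a number. Promoter motifs were not analysed here.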

Additional observations from a re-analysis of the deposited data

How the results depend on the processing

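The count of genes called was 391 (230 higher, 161 lower). It was 215 (139 higher, 76 lower) in a fit of the 4 libraries alone, which has fewer samples. Leaving out 1 library of the 4 gave 33 to 244 called genes, 29 to 129 higher and 4 to 115 lower, with the lowest counts without co-culture replicate 1. The other alternatives gave 279 to 415 called genes, within 1.5 times the main count. A replicate block gave 332 called genes (198 higher, 134 lower); the deviations of same-numbered libraries correlated at 0.031, which gives no sign of pairing.

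No called gene named here changed direction under any alternative run. Of the named genes not called, IMPDH2 (-0.0229), CALR (-0.18), IER3 (-0.0729), ACADVL (-0.0679), YBX1 (-0.0393), CD63 (-0.361) and COL1A2 (-0.184) changed sign under quantile normalization, and GAPDH (-0.0973) and CD63 (-0.0754) under upper quartile scaling. Taking the highest transcript changed the sign of MDK (-1.60) and CD63 (-0.034). With 1 library left out, signs changed for IL1B (-0.167 to 0.0242), CD81 (-0.0203 to 0.000155), GPRC5A (-0.0579 to 0.56), GAPDH (-0.0202 to 0.108), CD63 (-0.225 to 0.356), PSMA4 (-4.10 to 1.30), COL3A1 (-0.454 to 0.207) and FAP (-2.64 to 0.0583), given as the lowest and highest log2 fold change; the cause was not tested. Read depth is unknown, so a value of 0 and a low value cannot be told apart here, and the 2 libraries per group limit every call.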
